A study of Homo sapiens with 6 samples.

Results

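Open chromatin was examined at 10 genes of the passage from the first gap phase of the cell cycle into DNA synthesis (G1/S). They were the D-type cyclin genes CCND1, CCND2 and CCND3, the cyclin E gene CCNE1, the kinase genes CDK4, CDK6 and CDK2, the inhibitor gene CDKN1B, and RB1 and E2F1. The 10 were chosen by name for their role, out of 38340 protein-coding and long non-coding RNA genes on the chromosomes. Each was studied over its GRCh38 span plus 20 kb on either side. The measurements came from ATAC-seq, in which a transposase cuts and tags accessible DNA, in NCI-H1703, an established human lung squamous cell carcinoma line. Cells with silenced DLGAP1-AS2, a long non-coding RNA, gave 3 libraries and control cells of the same line gave the other 3. The sample titles carry the prefix ASO for the silenced and NC for the control libraries. The dose and duration of silencing are not given in the sources used here, and the lists hold no RNA measurement that would show its extent. Nothing states that libraries of 1 group came from separate cultures, so the spread between them may be technical.

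In G1, D-type cyclins bind CDK4 and CDK6, and these kinases phosphorylate the retinoblastoma protein encoded by RB1. Phosphorylation releases E2F factors, which switch on genes for DNA replication, among them CCNE1 and E2F1 itself. Cyclin E then activates CDK2 and completes the inactivation of the retinoblastoma protein. The product of CDKN1B, p27, binds cyclin-CDK complexes and restrains them.

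The 6 peak lists held 91346 to 170882 peaks. The background coverage that stands in for the unreported depth ran from 0.237 in silenced replicate 3 to 0.464 in control replicate 2, which had the shortest list. Peak height is the pileup of fragments that the authors' peak caller gave, and it depends on depth. In silenced replicate 3 the height was a median of 0.575 times the median of the other 5 libraries over the 37284 regions called in all 6 libraries. This ratio was 0.5 at the shared regions on a listed gene start and 0.431 at the promoter regions of the 10 genes. Heights are therefore given as a description, and the groups were compared by ranks within each list. The markers of the labelled cell type were checked as well. Of 9 squamous markers, SOX2 alone carried a peak at a gene end (within 1 kb) in all 6 libraries, and KRT6A, DSC3 and TRIM29 carried none in any. All 3 mesenchymal markers, 2 of 4 general epithelial markers, 2 of 3 lung adenocarcinoma markers, 1 of 4 immune markers and 0 of 3 endothelial markers had such a peak in all 6.

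RefSeq promoter sequences (GRCh38.p14, 250 bases before to 50 after a start) were matched for 7 of the 10 genes, with 10 starts in all. CCND1, CCND2 and CDK2 were not matched. The sequences shown are the matched promoters that overlap a region called in every library, plus the outer start of CDK6, where calls differed between libraries. The matched RB1 start lies inside the gene and had no overlapping peak, so the lower end of RB1 is shown through RB1-DT, the divergent transcript that begins there. Capitals mark matches on either strand to the GC box bound by SP and KLF factors (GGGCGG) and to 2 forms of the E2F site (TTCCCGC or TTGGCGC).
E2F1, chr20:33686336-33686635, minus strand: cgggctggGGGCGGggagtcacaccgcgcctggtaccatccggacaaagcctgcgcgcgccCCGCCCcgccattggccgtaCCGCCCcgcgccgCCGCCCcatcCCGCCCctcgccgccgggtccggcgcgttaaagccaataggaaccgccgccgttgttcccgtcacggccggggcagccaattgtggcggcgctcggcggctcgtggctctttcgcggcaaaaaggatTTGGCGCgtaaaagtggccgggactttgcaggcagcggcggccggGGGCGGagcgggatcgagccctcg
RB1-DT, chr13:48303653-48303952, minus strand: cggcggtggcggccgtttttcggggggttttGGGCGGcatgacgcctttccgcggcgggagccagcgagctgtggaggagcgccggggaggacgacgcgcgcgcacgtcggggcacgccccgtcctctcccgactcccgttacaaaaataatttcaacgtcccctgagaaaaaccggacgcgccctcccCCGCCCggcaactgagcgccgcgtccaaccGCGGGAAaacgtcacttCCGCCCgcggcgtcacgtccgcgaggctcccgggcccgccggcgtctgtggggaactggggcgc
CCNE1, chr19:29811741-29812040, plus strand: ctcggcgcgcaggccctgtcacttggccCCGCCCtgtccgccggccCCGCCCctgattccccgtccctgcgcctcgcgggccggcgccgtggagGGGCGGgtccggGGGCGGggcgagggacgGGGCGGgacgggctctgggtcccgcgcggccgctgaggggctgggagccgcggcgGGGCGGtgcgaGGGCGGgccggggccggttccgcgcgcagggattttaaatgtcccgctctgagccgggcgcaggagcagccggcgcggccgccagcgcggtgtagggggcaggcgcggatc
CDK4, chr12:57752261-57752560, minus strand: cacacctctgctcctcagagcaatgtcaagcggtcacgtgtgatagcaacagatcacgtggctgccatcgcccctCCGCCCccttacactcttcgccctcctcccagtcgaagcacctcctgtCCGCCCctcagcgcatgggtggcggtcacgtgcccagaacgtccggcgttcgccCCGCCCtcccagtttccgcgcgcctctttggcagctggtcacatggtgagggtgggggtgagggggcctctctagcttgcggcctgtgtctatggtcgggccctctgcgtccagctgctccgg
CDKN1B, chr12:12717118-12717417, plus strand: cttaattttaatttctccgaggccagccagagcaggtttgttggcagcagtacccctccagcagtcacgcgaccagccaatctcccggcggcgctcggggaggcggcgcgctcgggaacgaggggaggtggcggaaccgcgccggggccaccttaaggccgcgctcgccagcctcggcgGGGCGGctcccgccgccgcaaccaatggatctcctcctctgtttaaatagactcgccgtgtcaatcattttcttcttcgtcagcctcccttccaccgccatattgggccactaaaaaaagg
CCND3 middle start, chr6:41941759-41942058, minus strand: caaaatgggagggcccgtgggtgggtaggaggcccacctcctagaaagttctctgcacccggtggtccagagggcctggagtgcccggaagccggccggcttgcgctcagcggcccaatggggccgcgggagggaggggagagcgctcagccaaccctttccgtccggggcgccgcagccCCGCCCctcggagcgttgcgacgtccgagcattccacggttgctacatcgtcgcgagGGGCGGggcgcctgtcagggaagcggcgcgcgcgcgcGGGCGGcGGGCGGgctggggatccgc
CDK6 inner start, chr7:92833910-92834209, minus strand: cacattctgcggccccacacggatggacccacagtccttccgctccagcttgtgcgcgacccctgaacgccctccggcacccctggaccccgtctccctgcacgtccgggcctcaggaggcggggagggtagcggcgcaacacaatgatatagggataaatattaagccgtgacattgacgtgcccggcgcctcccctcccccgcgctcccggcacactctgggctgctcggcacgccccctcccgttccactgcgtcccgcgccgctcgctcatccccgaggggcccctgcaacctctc
CDK6 outer start, chr7:92836524-92836823, minus strand: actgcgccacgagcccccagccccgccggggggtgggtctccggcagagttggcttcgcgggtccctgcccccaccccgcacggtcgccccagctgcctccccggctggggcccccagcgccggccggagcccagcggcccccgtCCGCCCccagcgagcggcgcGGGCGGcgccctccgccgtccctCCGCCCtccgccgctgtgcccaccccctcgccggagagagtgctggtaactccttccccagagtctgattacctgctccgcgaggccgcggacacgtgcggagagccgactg

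The E2F1 promoter held 1 E2F match, at position -19 from the start, and 6 GC boxes. The RB1-DT promoter held 1 E2F match, at position -31, and 3 GC boxes. CCNE1 held 7 GC boxes and CDK4 held 3, with no E2F match in either. The middle CCND3 promoter held 4 GC boxes and CDKN1B held 1. The inner CDK6 promoter held neither motif and the outer one held 3 GC boxes. Over the 10 promoters of the 7 matched genes, RB1-DT not counted, the GC box occurred in 7 (45.0% of the 35116 promoters in the table hold it) and the E2F forms in 1 (9.23% of all). The NF-Y motif CCAAT occurred in 4 (34.6% of all), the AP-1 motif TGANTCA in 1 (7.71% of all) and the TEAD motif GGAATG in 1 (14.0% of all). The TEAD match lay in the middle CCND3 promoter, at position -41, and the AP-1 match in the promoter of the internal RB1 start, at position -210. A match describes the letters only.

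Each of the 10 genes had a promoter region called in all 6 libraries. A promoter region is a merged region at a listed start or at an end of the span. Among several candidates a region called in more libraries was preferred, so the choice favoured this outcome. The outer CDK6 start was called in 3 libraries and the outer CCND3 start in 2. Counted within 1 kb of either gene end, 9 of the 10 had a peak in all 6 libraries, and CDK6 had one in 5. The share of all genes with such a peak was not computed. By mean height the order was CCND2, CDK4, E2F1, CCND3, CDKN1B, CDK6, CCND1, RB1, CDK2 and CCNE1. The 3 tallest, CCND2, CDK4 and E2F1, exchanged places between libraries and so did not differ in order beyond their spread. They were the first 3 in every library. At the other end CCNE1 was lowest in 3 libraries and CDK2 in 2, and in control replicate 1 CCND1, CCNE1, CDK2 and RB1 tied at 24. The median mean height over the 9619 shared regions on a listed start was 35.3 (quartiles 20.7 and 57.7).

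**Figure D1:**
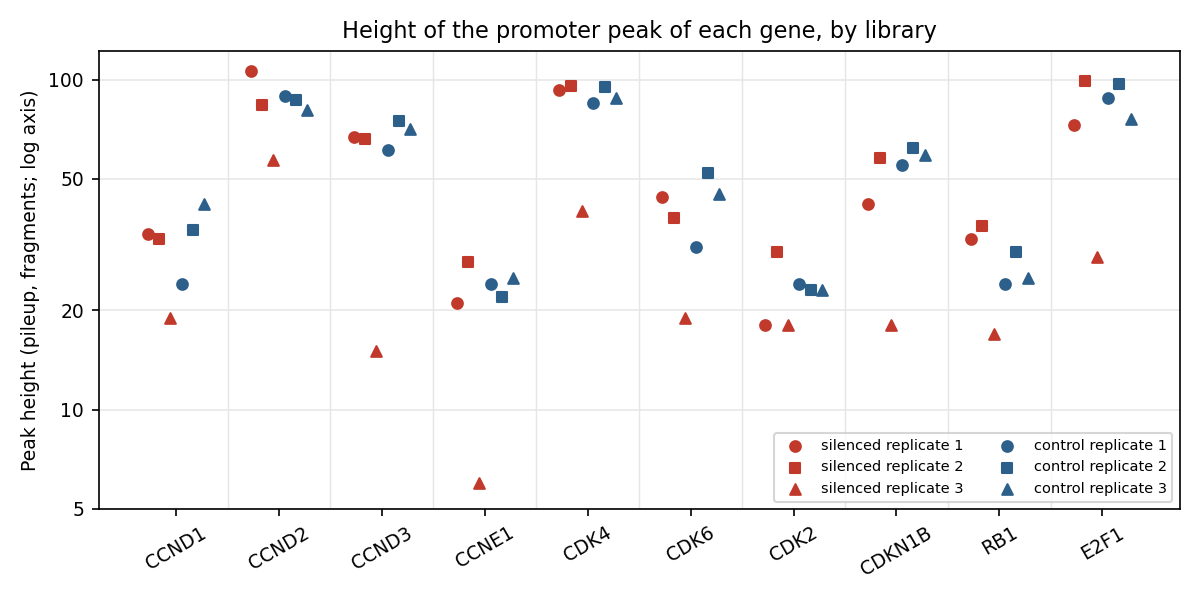
Height of the promoter peak (pileup of fragments, log axis) for each of the 10 genes, with 1 point per library (silenced in red, control in blue). Silenced replicate 3 is the lowest point at 9 of the genes and ties for the lowest at CDK2, and the tallest peaks belong to CCND2, CDK4 and E2F1.

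The D-type cyclins differed among themselves in where their open regions lay. At CCND2 (gene ID 894, span 4273762 to 4305353) the region at the lower end of the gene (chromosome 12, 4273492 to 4274455) reached heights of 106, 84 and 57 in the silenced libraries and 89, 87 and 81 in the control libraries, given here and below in the order of replicates 1, 2 and 3. At CCND1 (gene ID 595, span 69641156 to 69654474) the region at the lower end (chromosome 11, 69640963 to 69641373) reached heights of 34, 33 and 19 in silenced and 24, 35 and 42 in control libraries. In both genes the groups overlapped. CCND1 had a second shared region outside any gene span, centred at -1.94 kb from the lower end of its span (69638925 to 69639515), with heights of 37, 55 and 22 in silenced and 41, 32 and 27 in control libraries. This region, not the one on the gene end, held the strongest peak of the CCND1 window by fold enrichment in 4 of 6 libraries.

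CCND3 (gene ID 896, span 41934933 to 42050035) has 3 listed starts, and open chromatin was not spread evenly over them. The middle start, at 41941808 on chromosome 6, lay in a region (41941417 to 41942314) with heights of 67, 66 and 15 in silenced and 61, 75 and 71 in control libraries. Silenced replicate 3 stood far below the other 5, at 0.224 of their median. The outer start, at 42048688, was overlapped by a peak in control replicates 1 and 2 only, with heights of 13 and 17, and the innermost start, at 41939205, had no peak within 1 kb in any library. A shared region also lay 199 bp beyond the upper end of the gene (42050234 to 42050955) and overlapped the span of TAF8. The listed CCND3 starts are on the minus strand, so this is the upstream end of the gene. Heights there were 40, 47 and 20 in silenced and 39, 34 and 57 in control libraries.

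CCNE1 (gene ID 898, span 29811991 to 29824312) had the lowest promoter region of the 10. Its region (chromosome 19, 29811230 to 29812095) reached heights of 21, 28 and 6 in silenced and 24, 22 and 25 in control libraries. Here too silenced replicate 3 stood alone, at 0.25 of the median of the other 5, and in that library the FDR of the peak was 0.000466. No other protein-coding or long non-coding RNA gene lies in the CCNE1 window.

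Among the kinases, CDK4 (gene ID 1019, span 57747727 to 57752310) had the tallest promoter peak. Its region (chromosome 12, 57752190 to 57752809) reached heights of 93, 96 and 40 in silenced and 85, 95 and 88 in control libraries. For CDK6 (gene ID 1021, span 92604921 to 92836573) the inner start, at 92833959 on chromosome 7, was covered in every library (92832935 to 92834327), with heights of 44, 38 and 19 in silenced and 31, 52 and 45 in control libraries. The outer start, at 92836573, was overlapped by a peak in silenced replicates 2 and 3 and control replicate 1, with heights of 20, 10 and 18, and so did not follow the groups. CDK2 (gene ID 1017, span 55966830 to 55972789), which pairs with cyclin E, had a low promoter region (chromosome 12, 55966073 to 55967163) with heights of 18, 30 and 18 in silenced and 24, 23 and 23 in control libraries. The tallest region of its window lay 637 bp beyond the other end of the gene (55973426 to 55974206), on the listed start of RAB5B.

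CDKN1B (gene ID 1027, span 12717368 to 12722369), RB1 (gene ID 5925, span 48303751 to 48481890) and E2F1 (gene ID 1869, span 33675477 to 33686385) complete the pathway. The CDKN1B promoter region (chromosome 12, 12716908 to 12717737) reached heights of 42, 58 and 18 in silenced and 55, 62 and 59 in control libraries. The E2F1 region (chromosome 20, 33686223 to 33686840), which covers the E2F match shown in its sequence, reached heights of 73, 99 and 29 in silenced and 88, 97 and 76 in control libraries. The RB1 region (chromosome 13, 48303024 to 48304291) reached heights of 33, 36 and 17 in silenced and 24, 30 and 25 in control libraries. For all 3 genes the heights of the groups overlapped.

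Besides the promoter, the tallest region called in all 6 libraries lay at a neighbour in most windows. At CDK2 it was the RAB5B start, with heights of 147, 185 and 111 in silenced and 151, 169 and 140 in control libraries. At CCND2 it was the start of TIGAR (4320434 to 4321562), with 134, 155 and 33 in silenced and 108, 144 and 141 in control libraries. CCND3 had the shared start of MED20 and BYSL (41920612 to 41921625), with 66, 73 and 40 in silenced and 59, 79 and 62 in control libraries. All 3 regions were lowest in silenced replicate 3, and in each the groups overlapped in height. CDK6 had the start of FAM133B (92589603 to 92590665), with 54, 62 and 17 in silenced and 55, 69 and 61 in control libraries. E2F1 had the start of NECAB3 (33674292 to 33675322), with 35, 47 and 11 in silenced and 39, 49 and 35 in control libraries. CDK4 had a flanking region that overlapped the spans of METTL1 and EEF1AKMT3 (57771666 to 57772730). Its heights were 63, 55 and 24 in silenced and 39, 54 and 47 in control libraries. CCNE1 had a region outside any gene (29841714 to 29842037), with 17, 21 and 13 in silenced and 17, 25 and 22 in control libraries. RB1 had no shared region besides its promoter.

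The question of the study's design is whether accessibility differs once DLGAP1-AS2 is silenced. No promoter region of the 10 genes passed the test of within-list ranks. For this test the fold enrichment was ranked within each list among the 37284 regions called in all 6, and normal scores of these ranks were compared with limma. The background share of regions with an adjusted p-value under 0.05 (Benjamini-Hochberg) was 0.00%, that is 0 regions, and 4.68% had an unadjusted p-value under 0.05. Among the 46 shared regions in the windows, 0 passed after adjustment (limma, smallest adjusted p = 0.963) and 1 had an unadjusted p-value under 0.05.

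By fold enrichment, RB1 was the promoter whose groups stood furthest apart. Its region outranked 82.6%, 77.6% and 76.6% of the shared regions in the silenced libraries and 63.8%, 66.6% and 60.7% in the control libraries. All 3 silenced libraries thus lay above all 3 control libraries. The difference was 0.46 score units (SE 0.22, n = 3 per group), with an unadjusted p = 0.0518 and an adjusted p = 0.963 from limma, so it did not pass. The ranking measure set this order. Ranked by height, the difference was 0.28 at RB1, -0.35 at CCND3 and -0.31 at CDKN1B (unadjusted p = 0.0942, 0.0671 and 0.0447, smallest adjusted p = 0.971, limma). Ranked by p-value it was 0.36 at RB1, -0.41 at CCND3 and -0.39 at CDKN1B. The RB1 peak was also shorter in each silenced library, at 841, 880 and 696 bp, than in each control library, at 1214, 1174 and 1045 bp. Length was examined after its values were seen. Of all shared regions, 8.07% had peaks shorter in every silenced library than in every control library, and 10.4% had no overlap in either direction. Of the 10 promoter regions, 3 were shorter in this way (CCND3, CDK2 and RB1) and 0 longer.

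For the other promoters the score difference (silenced minus control) was 0.42 at CCND2 (SE 0.22, unadjusted p = 0.0712), -0.40 at CCNE1 (SE 0.31, unadjusted p = 0.216), -0.28 at CCND3 (SE 0.26, unadjusted p = 0.303) and -0.22 at CDKN1B (SE 0.26, unadjusted p = 0.415) (limma). At CCNE1 the rank of silenced replicate 3 set the value, since the region outranked 69.1%, 69.2% and 26.8% of shared regions in silenced and 77.9%, 53.4% and 76.6% in control libraries. Without that library the difference at CCNE1 was -0.025, and at CCND3 it was 0.057. At CCND2 the difference was 0.15 when ranked by height and 0.24 when ranked by p-value. At an FDR of at most 1e-05 it was 0.54 at CCND2, -0.46 at CDKN1B and -0.48 at CCND3. Without silenced replicate 2 it was 0.59 at CCND2 (unadjusted p = 0.0170, adjusted p = 0.759, limma). The remaining 5 differences, at CCND1, CDK4, CDK6, CDK2 and E2F1, lay between -0.14 and 0.21. With all peaks and all libraries, every adjusted p-value was at least 0.963.

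Across all 46 shared regions of the windows, 8 had groups that did not overlap, 5 higher and 3 lower in silenced cells, where 10.2% of all shared regions had no overlap, 5.39% higher and 4.78% lower. The region with the lowest unadjusted p-value lay 34.2 kb above the lower end of CCND2 and outside any gene span (chromosome 12, 4307662 to 4308354). It outranked 85.6%, 81.7% and 90.3% of shared regions in silenced and 76.6%, 57.5% and 79.4% in control libraries (difference 0.51, SE 0.23, unadjusted p = 0.0375, adjusted p = 0.963, limma). Close to the CCND2 promoter, a weak region inside the span of CCND2-AS1 (4271969 to 4272234) ranked the other way, with heights of 21, 21 and 12 in silenced and 25, 30 and 28 in control libraries. It outranked 2.56%, 2.60% and 4.38% of shared regions in silenced and 6.51%, 7.78% and 7.91% in control libraries (unadjusted p = 0.348, limma). The 2 regions near CCND2 thus differed in opposite directions, and neither passed after adjustment.

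CDKN1B had 5 shared regions in a window of 45.0 kb, and the strongest was not on its promoter. It was centred at -12.6 kb from the gene, inside the span of GPR19 (12704603 to 12705007), with heights of 46, 63 and 47 in silenced and 65, 75 and 59 in control libraries. By rank it was near the top of every list, above 96.2% to 98.3% of shared regions in silenced and 98.5% to 99.3% in control libraries. Every control library ranked it above every silenced library (difference -0.33, SE 0.20, unadjusted p = 0.114, adjusted p = 0.963, limma).

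The same comparison was made gene by gene, with the strongest peak of each window ranked among the 31216 genes that had a peak in every library. For all genes 0.00% passed after adjustment, 4.84% had an unadjusted p-value under 0.05 and 10.0% had groups without overlap, 5.34% higher and 4.69% lower in silenced cells. Of the 10 genes, 0 passed (limma), 1 (RB1) had an unadjusted p-value under 0.05, and 3 had groups without overlap, 2 higher and 1 lower. RB1 outranked 62.9%, 55.9% and 55.3% of genes in silenced and 40.5%, 43.3% and 37.6% in control libraries (difference 0.45, SE 0.19, unadjusted p = 0.0291, adjusted p = 0.97, limma). The strongest RB1 peak was the promoter peak in all 6 libraries, so this is the same peak as before and no second result. CCND3 was the other gene higher in every silenced library (difference 0.30, SE 0.20, unadjusted p = 0.16, limma), but its strongest peak lay on the shared start of MED20 and BYSL. CDKN1B was lower in every silenced library (difference -0.40, SE 0.24, unadjusted p = 0.113, limma), through the region in GPR19. Ranked by height, the differences were 0.26 at RB1, 0.0025 at CCND3 and -0.06 at CDKN1B.

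**Figure D2:**
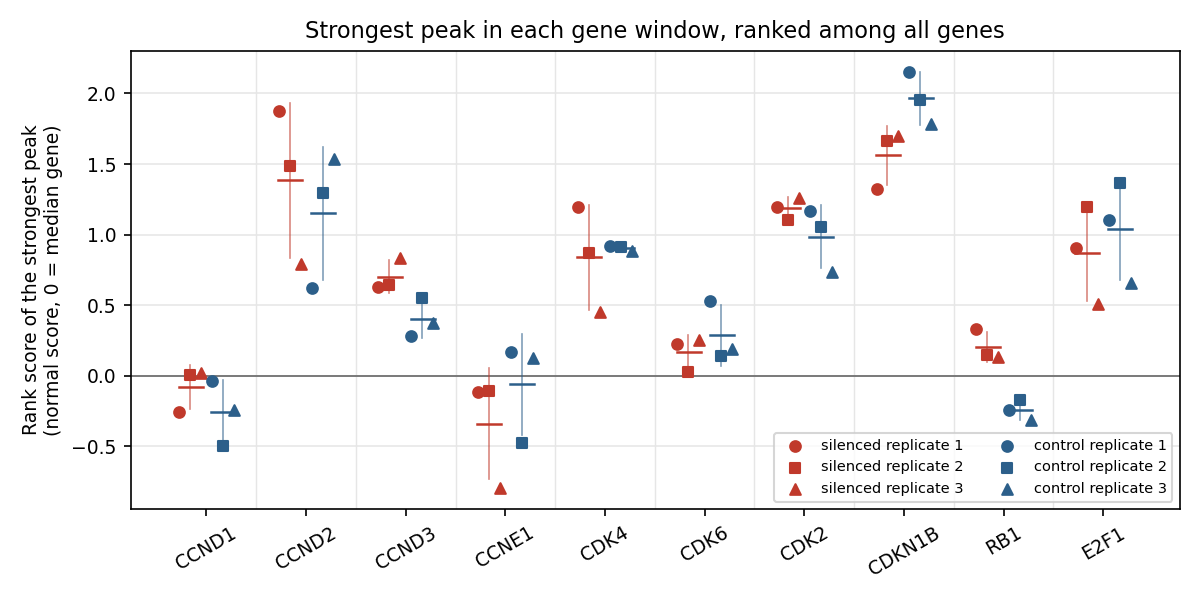
Normal score of the strongest peak in each gene window, ranked by fold enrichment among 31216 genes (0 is the median gene), with 1 point per library, the group mean as a horizontal line and the SD as a vertical line (n = 3). The silenced points lie above the control points at RB1 and CCND3 and below them at CDKN1B, and they overlap at the other 7 genes.

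By level, the strongest peaks of CDKN1B, CCND2, CDK2, E2F1 and CDK4 ranked high and those of CCND1, CCNE1 and RB1 nearer the median gene. CDKN1B outranked at least 90.7% of genes in every library and CDK2 at least 77.0%. The lowest values were 73.4% for CCND2, 69.5% for E2F1 and 67.4% for CDK4. CCND1 outranked 30.9% to 50.8% and CCNE1 21.3% to 56.7%. The lowest CCNE1 value came from silenced replicate 3, where the strongest peak lay 29.9 kb above the lower end of the gene. In the windows of CCND2, CCND3, CDK6 and CDK2 the region that was strongest in most libraries lay on the listed start of a neighbour, namely TIGAR, MED20 with BYSL, FAM133B and RAB5B. At CDKN1B it was the region in GPR19 in all 6 libraries, and at CCND1 the region at -1.94 kb in 4. In these 6 windows the level mostly describes a region other than the promoter of the gene. The promoter region was strongest at CCND2 in silenced replicate 3 and at CCND1 in control replicate 3. At CDK6 a region inside the gene was strongest in silenced replicate 3 and control replicate 1. The scores of CCND1, CCND2 and CDK6 thus mix regions between libraries.

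The windows also differed in how many regions they held and how reproducibly these were called. Merging the 6 lists gave 216 regions in the 10 windows, of which 46 (21.3%) were called in all 6 libraries and 122 (56.5%) in 1. Over the whole genome the shares were 7.35% and 74.1%. Of the 46, 10 were the promoter regions and 6 lay on a listed start of another gene. Of the rest, 13 lay inside the member's span, 13 in a flank overlapping another gene and 4 in a flank outside any gene. The regions on starts of other genes were the tallest, with a median mean height of 58.1, against 43.6 for the promoter regions and 17.0 for those inside the span.

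**Figure D3:**
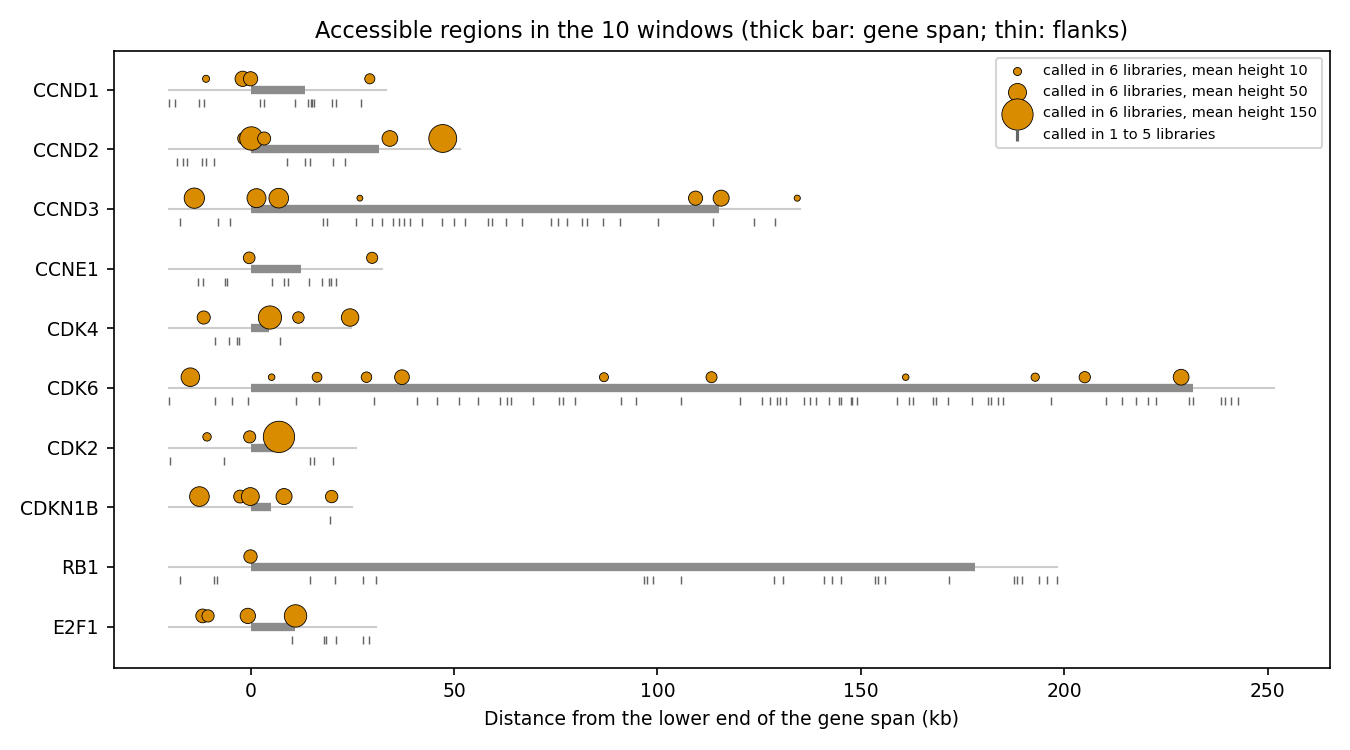
Position of every merged region in the 10 windows, as distance in kb from the lower end of the gene span (thick bar, span; thin line, flanks of 20 kb). Circles are regions called in all 6 libraries with area by mean height, and ticks are regions called in 1 to 5 libraries; RB1 has 1 circle and CDK6 has 11.

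CDK6 and RB1, the longest genes of the set, had opposite patterns. CDK6 spans 232 kb, and 10 of its 11 shared regions touched the gene itself, spread along its length with mean heights from 6.5 to 38.2. The tallest of these besides the promoter lay 37.2 kb above the lower end (92641772 to 92642511), with heights of 30, 36 and 22 in silenced and 41, 35 and 36 in control libraries. RB1 spans 178 kb, and its promoter region was the only 1 of 27 regions called in all 6 libraries. The other 26 had a median height of 3 and a highest mean height of 5. Per 100 kb of window, RB1 had 0.458 shared regions, more than 15.3% of protein-coding genes, and CDK6 had 4.05, more than 67.1%. CDKN1B had the highest density of the 10, at 11.1 per 100 kb, more than 97.7% of protein-coding genes, whose median was 2.48. Its span is 5.00 kb of a 45.0 kb window, and 1 of its 5 shared regions touched the gene. This density therefore describes mostly the flanks, and the share of flanks differs with gene length.

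**Figure D4:**
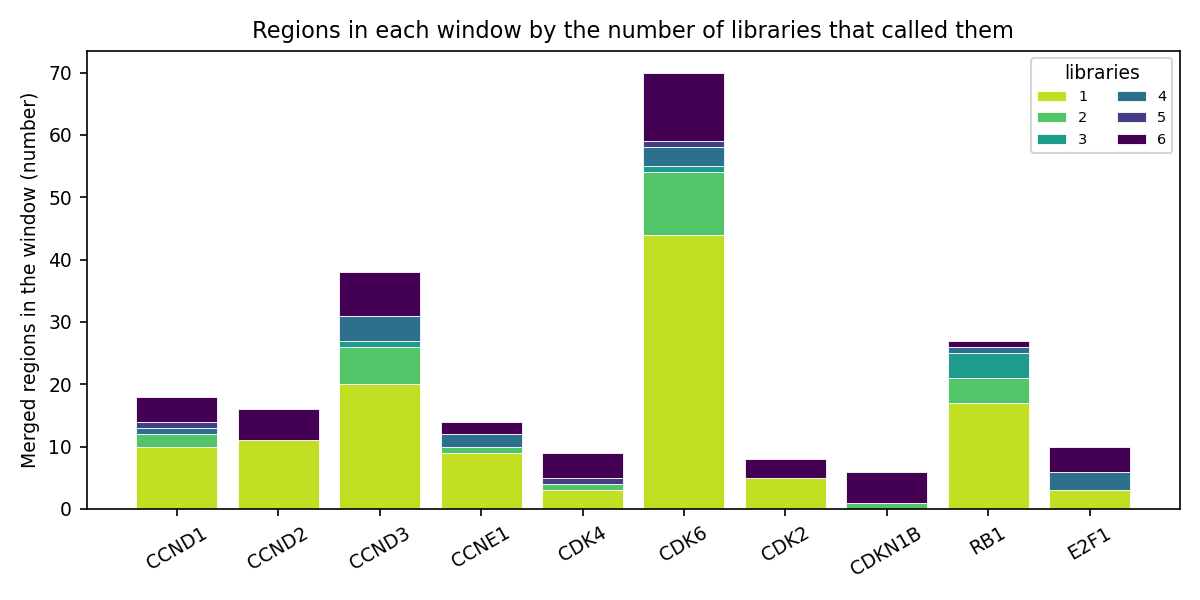
Number of merged regions in each window, stacked by the number of libraries that called them (1 to 6). Regions called once make up 44 of 70 at CDK6 and 17 of 27 at RB1, whereas 5 of 6 regions at CDKN1B were called in all 6 libraries.

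The number of peaks in a window did not separate the groups at any of the 10 genes after adjustment. The windows together held 103, 89 and 84 peaks in silenced and 102, 76 and 98 in control libraries, a mean of 92.0 ± 9.85 (SD, n = 3) and 92.0 ± 14.0 (SD, n = 3). The RB1 window varied most, with 12, 7 and 4 peaks in silenced and 10, 1 and 14 in control libraries. The single peak of control replicate 2 there was the promoter peak, and that library listed 2.46% of its peaks below a height of 4, against 48.1% to 52.1% in the other 5. CDK6 was steady, with 28, 27 and 24 peaks in silenced and 26, 25 and 27 in control libraries. E2F1 had 6 peaks in each silenced library and 9, 7 and 7 in control libraries. These raw numbers did not overlap, but they depend on list length, and once scaled to it they overlapped. The share of all genes without overlap in raw numbers was not computed.

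Scaled to list length (log2 of peaks per 100000 listed peaks, 0.5 peaks added), limma called 0 of the 10 genes after adjustment and 0 at an unadjusted p-value under 0.05. Of the 28153 genes tested, 0.00% were called after adjustment and 2.47% unadjusted. With lists cut to equal length, RB1 had a log2 difference of 1.10 (unadjusted p = 0.0335) in place of 0.18, and E2F1 had -0.43 (unadjusted p = 0.0256), each with an adjusted p = 0.856 (limma). Groups did not overlap at 1 of the 10 genes (CCNE1, higher in silenced cells), where 6.57% of all genes had no overlap, 2.71% higher and 3.86% lower. For E2F1 the scaled numbers overlapped. The lowest unadjusted p-value among the 10 was 0.224, at E2F1 (log2 difference -0.44, SE 0.36, adjusted p = 0.999, limma).

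No region in the windows was called in all 3 libraries of 1 group and in none of the other. The share over all 507440 merged regions was 0.130% for silenced cells alone and 0.200% for control cells alone, so that few would be found among 216 at the background share. With stricter lists 1 region appeared on each of 2 occasions, both in control cells. At an FDR of at most 1e-05 it was the weak region in CCND2-AS1 described before, which was present in all 6 full lists (background 1.01% of regions, and 0.0993% for silenced cells alone). At a height of at least 4 it was a region 18.5 kb above the lower end of E2F1 (chromosome 20, 33693778 to 33694267), with heights of 4, 6 and 5 in the control libraries and 3 in silenced replicate 3 in the full lists (background 0.513% of regions, and 0.0959% for silenced cells alone).

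Other genes of the pathway were treated the same way. Of 23 further G1/S genes (other cyclins, inhibitors, pocket proteins, E2F factors and regulators), 22 carried a peak at a gene end in all 6 libraries. The exception was CDKN1A, the gene of the inhibitor p21, which had no such peak in any library but 4 to 9 peaks in its window. In the test of the strongest peak (limma) none was called after adjustment, 1 of the 23 was under 0.05 unadjusted, and the median score difference was 0.05, against 0.01 over all genes. Of 16 replication genes that are known E2F targets, 14 carried a peak at a gene end in all 6 libraries. In the same test (limma) none of the 16 was called after adjustment, 1 was under 0.05 unadjusted, and the median score difference was 0.08. By the same count of peaks within 1 kb of either end, 9 of the 10 members had a peak in all 6 libraries. The share of all genes with such a peak was not computed, so these counts do not single out the pathway.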

How the data were processed

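ATAC-seq peak lists of 6 libraries were analysed, 1 list per library. Per the submitters' processing notes, Trimmomatic 0.36, Bowtie2 2.2.6, Picard 2.8.2, MACS2 2.1.1 and bedtools 2.25.0 were used with GRCh38; their settings, any shift of read ends and any pooling are not given in the sources used here. Per the file headers, the authors deposited for each peak a pileup signal (height), a fold enrichment (ratio over background), a p-value and an FDR. No deposited p-value was above 0.00987. Total reads are not given, so depth is the smallest value of (height + 1) / fold enrichment - 1 in a list. No pair of lists shared more than 0.0887% of its intervals exactly.

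Peaks on the chromosomes were merged at an overlap of at least 1 bp. Gene spans came from a RefSeq table (GRCh38.p14). Normal scores of within-list ranks were tested with limma 3.58.1 (R 4.3.3), with a Benjamini-Hochberg threshold of 0.05 over all regions or genes; for the number of peaks, genes with a mean under 3 peaks were left out. Each procedure was run on simulated data with known shifts. The simulation drew independent errors of equal spread for all libraries, which the data need not follow, and its outcome is not used as support. Named regions were the promoter regions, the tallest other shared regions and regions of 1 group; others were chosen after their values were seen. The members and gene lists were chosen with earlier results of these data known. Alternatives were other peak thresholds, rankings, flanks and merging, and leaving out each library. An exact permutation test of 3 libraries against 3 cannot go below 0.1. The replicate numbers of the 2 groups are not stated to mark shared handling.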

Additional observations from a re-analysis of the deposited data

How the results depend on the processing

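Background coverage was lowest in silenced replicate 3, and 122 of the 216 member regions were called in 1 library only. Over every recomputed member difference the smallest adjusted p-value was 0.728 (limma). The alternatives for the promoter scores were added after seeing the data. The cause of each change below was not tested.

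The number of genes called for their strongest peak, 0, became 1 with an FDR of at most 1e-05 and 1 with ranking by p-value, and lay between 0 and 1 when each library was left out (1 without control replicate 3). The gene was LOC101928940 each time, which is no member. The number of genes called for their number of peaks lay between 0 and 11 (11 without control replicate 1, 3 without control replicate 3), no member among them. Member regions of control cells alone became 1 at that FDR, 1 at a height of at least 4, and 1 to 5 when a library was left out (5 without control replicate 2). Those of silenced cells alone were 0 to 1. With a library left out, a region needs calls or absences in fewer libraries, and the share over all regions is not given for those settings. The counts with a library left out are therefore no result about the members. The number of shared regions called was 0 in every setting.

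The RB1 promoter difference kept its direction in all settings and lay between 0.38 and 0.48 when a library was left out. RB1 was not alone in this. With a library left out the promoter difference lay between 0.28 and 0.59 at CCND2 and between 0.044 and 0.33 at CDK2. It lay between -0.61 and -0.025 at CCNE1 and between -0.31 and -0.15 at CDKN1B. Some other scores changed sign. For the strongest peak, CCND2 was -0.024 ranked by p-value and -0.089 ranked by height, and CCNE1 was 0.018 ranked by height. With a library left out CCND2 lay between -0.031 and 0.53, CDK4 between -0.25 and 0.13, CDK6 between -0.18 and 0.0052, and E2F1 between -0.36 and 0.0075. For the promoter, CDK6 was -0.020 ranked by p-value and -0.051 ranked by height. With a library left out CCND1 lay between -0.13 and 0.34, CCND3 between -0.51 and 0.057, CDK4 between -0.20 and 0.11, CDK6 between -0.14 and 0.32, and E2F1 between -0.30 and 0.0087. CCND3, CDK4 and E2F1 turned positive without silenced replicate 3.

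The log2 difference in peak number often changed sign. It was largest at RB1 with equal list sizes, at 1.10. At an FDR of at most 1e-05 it was 0.36 at CCND1, -0.17 at CCND2, 0.16 at CCND3, 0.14 at CDK4, 0.23 at CDK6 and 0.24 at CDKN1B. At a height of at least 4 it was 0.17 at CCND1, 0.29 at CDK4, 0.10 at CDK6 and 0.22 at CDKN1B, and with equal list sizes 0.069 at CDK4. Over the span alone it was -0.12 at CCND2 and -0.13 at RB1. With 50 kb on either side it was -0.22 at CCND2, -0.048 at CCNE1, -0.034 at CDK2 and -0.00063 at RB1. With a library left out it lay between -0.20 and 0.12 at CCND1, -0.11 and 0.24 at CCND2, -0.44 and 0.064 at CCND3, -0.27 and 0.28 at CDK4, -0.26 and 0.16 at CDK6, -0.14 and 0.27 at CDK2, -0.32 and 0.14 at CDKN1B, -0.54 and 0.66 at RB1, and -0.63 and -0.20 at E2F1. At RB1 it was -0.54 without control replicate 2.

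Some settings gave no value: peak number at the stricter FDR for CCNE1 and RB1, at a height of at least 4 for RB1, and over the span alone for CCND1, CCNE1, CDK2, CDK4, CDKN1B and E2F1, all with a mean under 3 peaks. The promoter score of CCNE1 at the stricter FDR and that of CDK6 with peaks reduced to 200 bp had none either. The correlation of deviations between same-numbered libraries was -0.00196, 0.00238 and -0.00829. These values showed no pairing in the ranks, but they cannot tell whether same-numbered libraries were handled together. With the replicate block in limma, 0 shared regions and 0 genes were called in the 3 tests, and the RB1 promoter difference was 0.46 (unadjusted p = 0.0693).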
